A study of Mus musculus with 6 samples.

Results

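Pre-mRNA splicing factors were followed through the probes of an Illumina mouse bead array whose gene symbol begins with Sfrs, Srsf, Hnrnp, Hnrp, Sf3a, Sf3b, Snrp, Prpf or Lsm, with Lsm10 and Lsm11 left out. Of 45281 probes, 163 carried such a symbol, and 126 of them had a detection p-value below 0.01 on at least 2 of the 6 arrays. These 126 probes form the set described here and stand for 71 of the 78 genes with such a symbol, of which 37 had several probes and 34 had 1. The remaining 37 probes were left aside, 35 of them detected on no array and 2, a Lsm14b probe and a Prpf40b probe, on 1 array. Sf3b1, Hnrnpu, Hnrnpr, Hnrnpa3, Snrpe, Snrpb2 and Srek1ip1 thereby had no probe in the set. Just inside the threshold, with 2 arrays each, were the Prpf4b probe, the Sfswap probe and the dimmer Hnrnpa0 probe. All other probes of the set were detected on 3 to 6 arrays, and 114 of the 126 on all 6. The detection rule lets in a probe that is present in a single treatment group, so the 126 are not all splicing factor probes of the array. The older Sfrs symbols also bring in Tra2b, Sugp2, Scaf4, Scaf11, Srek1, Sfswap, Clasrp and Akap17b, whose current names lie outside the core SR family.

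The cells were SmoWT-MB, a mouse medulloblastoma line that the labels call Ptch-deficient, so all groups share the loss of this hedgehog receptor gene. They were treated for 6 h with DMSO as the solvent control, with JQ1, an inhibitor of BET bromodomain proteins, or with GDC-0449, which blocks Smoothened, the hedgehog signal transducer. Each group had 2 arrays, and the labels give neither concentrations nor whether the arrays of a group came from separate cultures. The p-values therefore measure the spread between these arrays, which may be technical.

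Splicing removes introns in a large ribonucleoprotein machine that is built anew on each transcript. The U1 and U2 small nuclear ribonucleoproteins (snRNPs) first mark the ends of an intron, and the U4/U6.U5 tri-snRNP then joins to form the catalytic core. SR proteins and heterogeneous nuclear ribonucleoproteins (hnRNPs) bind the transcript itself and steer which splice sites are used, often with opposing effects. Sm and LSM proteins form rings around the small nuclear RNAs, and PRPF proteins carry out the later steps of assembly and catalysis.

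Between 118 and 124 probes of the set were detected on each array. Of 11 markers of granule neuron precursors and hedgehog medulloblastoma, 7 were detected, among them Barhl1, Zic1, Zic2 and Otx2, while Atoh1, Neurod1, Nhlh1 and Pax6 were not. Of 5 markers each, 1 astrocyte marker (Slc1a3), 2 oligodendrocyte markers (among them Mbp), 1 microglia marker (Csf1r), 1 endothelial marker (Kdr) and no fibroblast marker were detected, and Gfap, Mog, Aif1, Cdh5 and Col1a1 were among those not detected. The summed astrocyte level was 2106 to 2136 with DMSO, 1203 to 1293 with JQ1 and 1948 to 1956 with GDC-0449, and the summed medulloblastoma level was 7297 to 7470, 7087 to 7145 and 11147 to 11167 in the same order. Single medulloblastoma markers moved both ways with JQ1. Barhl1 read 315 to 328 with DMSO and 186 to 190 with JQ1, and Meis1, Cntn2 and Mfap4 were lower too. Zic2 read 275 to 360 with DMSO and 531 to 565 with JQ1, and Zic1 and Otx2 were higher too. Mbp, summed over its 5 probes, read 435 to 497 with DMSO, 168 to 182 with JQ1 and 393 to 408 with GDC-0449. Over the 6 arrays the sums were 192 to 212 for microglia, 196 to 212 for endothelium and 225 to 239 for fibroblasts. The sum of each cell type also counts its undetected markers, which sit at background level. The fibroblast sum is therefore background signal, and of the other 2 sums Csf1r made up 51 to 64 and Kdr 48 to 66. The part of other cell types in the results below was not tested. Fewer cells of a type and less RNA per cell cannot be told apart in RNA of whole cultures.

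Promoters are shown for 5 genes whose probes in the set all passed the test in the same direction with JQ1 out of 17 such genes lower and 6 higher, as examples of both directions: Hnrnpa1, Hnrnpl and Srsf3 were lower, Srsf5 and Lsm14b higher. Both Srsf5 calls and that of the dim Lsm14b probe were lost under scaling to the median of all probes. The call of 1 Hnrnpa1 probe was lost under scaling to the median of the tested probes. The sequences are the 250 bases before the RefSeq start in GRCm38.p6, read 5′ to 3′, and capitals mark, on either strand, CCAAT boxes, the TATAA of a TATA box, CACGTG where present, and the core CCGGAA.
Hnrnpa1 promoter, chr15:103240147-103240396, plus strand: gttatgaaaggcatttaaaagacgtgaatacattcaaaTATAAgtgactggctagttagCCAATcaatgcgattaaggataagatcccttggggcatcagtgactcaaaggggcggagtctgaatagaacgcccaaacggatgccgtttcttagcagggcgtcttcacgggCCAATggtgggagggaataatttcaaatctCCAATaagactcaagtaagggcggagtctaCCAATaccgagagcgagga
Hnrnpl promoter, chr7:28810640-28810889, plus strand: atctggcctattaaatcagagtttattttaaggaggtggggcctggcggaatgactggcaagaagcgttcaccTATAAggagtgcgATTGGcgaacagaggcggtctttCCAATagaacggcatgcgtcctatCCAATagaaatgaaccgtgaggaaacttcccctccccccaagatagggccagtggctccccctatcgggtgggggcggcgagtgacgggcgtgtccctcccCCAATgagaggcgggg
Srsf3 promoter, chr17:29032410-29032659, plus strand: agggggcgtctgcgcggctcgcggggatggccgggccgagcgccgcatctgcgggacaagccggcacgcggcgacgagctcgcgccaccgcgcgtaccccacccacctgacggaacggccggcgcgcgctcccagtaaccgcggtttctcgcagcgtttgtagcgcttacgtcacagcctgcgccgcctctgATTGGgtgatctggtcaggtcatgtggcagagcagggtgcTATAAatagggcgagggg
Srsf5 promoter, chr12:80945249-80945498, plus strand: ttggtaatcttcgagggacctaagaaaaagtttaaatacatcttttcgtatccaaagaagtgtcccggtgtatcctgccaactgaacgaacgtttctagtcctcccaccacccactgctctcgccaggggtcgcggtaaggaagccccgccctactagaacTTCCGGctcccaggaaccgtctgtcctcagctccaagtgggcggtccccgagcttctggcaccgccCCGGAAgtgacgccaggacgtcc
Lsm14b promoter, chr2:180024737-180024986, plus strand: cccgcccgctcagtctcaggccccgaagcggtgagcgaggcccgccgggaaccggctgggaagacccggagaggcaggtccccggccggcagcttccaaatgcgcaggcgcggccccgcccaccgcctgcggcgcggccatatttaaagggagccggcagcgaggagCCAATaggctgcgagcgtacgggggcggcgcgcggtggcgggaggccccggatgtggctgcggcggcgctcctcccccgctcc
CCAAT, the motif known for NF-Y binding, occurs 4 times in the Hnrnpa1 window and 4 times in that of Hnrnpl, once each in those of Srsf3 and Lsm14b, and not in that of Srsf5. CCGGAA, the core of sites known for ETS factors, occurs 2 times in the Srsf5 window, and none of the 5 windows holds CACGTG, the E-box known for MYC family factors. Promoters were listed for 61 of the 71 genes, 81 windows in all. Of these 81, 33 held CCGGAA (40.7%), against 3952 of all 32851 promoters of the same length, and 43.2% held CCAAT against 33.8% of all promoters. TATAA was found in 13.6% against 22.8%, and CACGTG in 9.88% against 6.02%. Among the 21 windows of genes whose every probe in the set was lower with JQ1, 57.1% held CCAAT and 38.1% held CCGGAA, and among the 7 windows of genes whose every probe was higher the shares were 14.3% and 28.6%, or 1 and 2 windows. The higher genes include Prpf4b, which was detected on no DMSO and no JQ1 array. None of the 6 higher genes kept all its calls under scaling to the median of all probes. Of the lower genes, Lsm3, Sf3a3 and Sf3b2 lost their calls under scaling to the median of the tested probes. Among the 53 windows of the other genes of the set the shares were 41.5% and 43.4%. These differences were not tested. None of the 4 motifs contains another. The motifs and the 5 genes shown were chosen after the values had been seen, and a match describes the sequence only.

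In the comparison of JQ1 with DMSO, 57 of the 126 splicing factor probes passed an adjusted p of 0.05 in the linear model of limma, 17 higher and 40 lower. That is 45.2% of the set against 56.4% of all 17026 tested probes. Probes that rose were 13.5% of the set against 27.6% of all tested probes, and probes that fell were 31.7% against 28.8%. The share of rises lay below that of the array and the share of falls near it, with no test of the difference. The median log2 change was -0.14 in the set and -0.00 over all tested probes, and the changes ran from -1.38 to 0.78. The JQ1 arrays lay wholly above the DMSO arrays for 24 probes and wholly below for 66, where all tested probes gave 39.2% and 39.4%. With the brightest probe standing for each gene, 8 of 71 genes were higher and 22 lower, against 28.4% and 30.3% of all genes. By the fitted values a probe each of Hnrnpd and Hnrnpdl had a called fall of 2-fold or more (all tested probes 6.28%), of which only that of Hnrnpdl was detected with JQ1, and the Hnrnpd change was -0.84 without background correction and -0.80 with an offset of 50. No probe was called with a rise of 2-fold or more (all tested probes 5.05%).

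The split between higher and lower depended on how the arrays were brought to a common scale. Scaling to the median of all probes in place of quantile normalization moved the median over all tested probes to -0.30 and gave 3 higher and 70 lower, 2.38% and 55.6% of the set against 11.8% and 46.9% of all tested probes. Taking the median of the tested probes instead moved it to 0.07 and gave 22 higher and 31 lower, 17.5% and 24.6% against 32.0% and 25.8%. Single probes moved by more or less than these medians. Relative to the median of all tested probes, the set's median was -0.08 under both. All 17 higher and all 40 lower calls kept their direction under these scalings, without background correction and with an offset of 50. The call itself was kept under all 4 by 3 of the 17 higher probes and by 31 of the 40 lower ones. The count of higher calls fell to 9 without DMSO replicate 2 and to 9 without JQ1 replicate 2, and lower calls ranged from 30 to 43 with 1 array left out. Of the lower calls, 24 probes of 20 genes passed under every scaling and with each array left out in turn, and of the higher calls 3 did, a probe each of Hnrnpul1, Lsm14b and Prpf4.

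**Figure D1:**
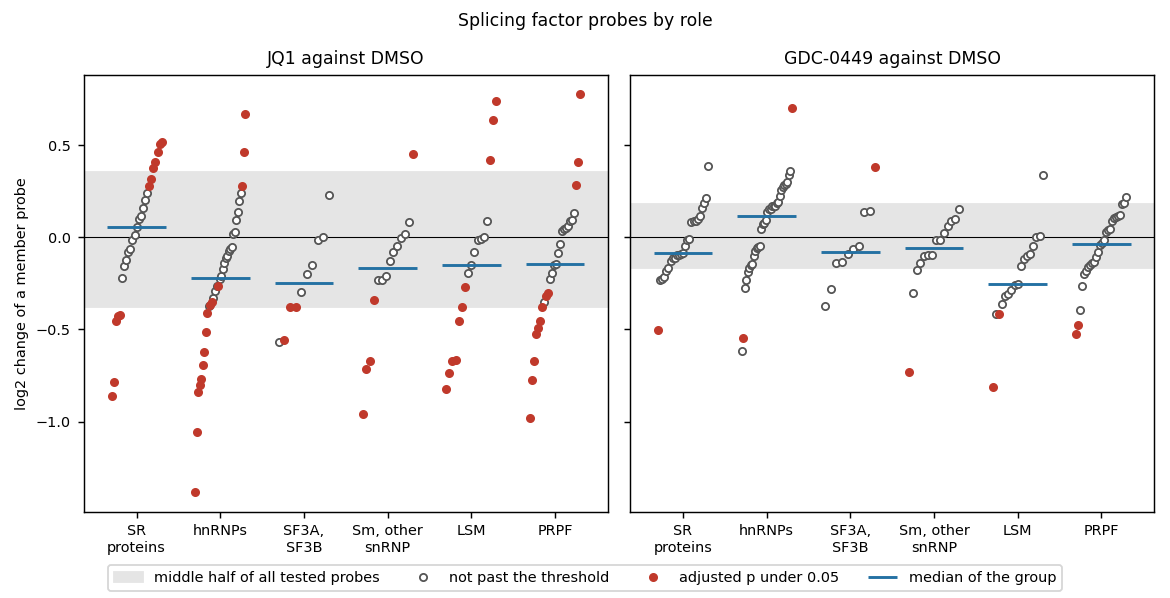
Log2 change of each of the 126 probes, grouped by role, for JQ1 against DMSO (left) and GDC-0449 against DMSO (right). Filled red points passed the adjusted p of 0.05, bars are group medians and the grey band spans the lower to the upper quartile of all 17026 tested probes. With JQ1 the hnRNP, SF3, Sm, LSM and PRPF medians lie between -0.25 and -0.15 and the SR median at 0.06, values that scaling to the median of all probes moves down, the SR median then being -0.17. With GDC-0449 only 9 probes are filled.

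SR proteins, which bind exonic enhancers through an RNA recognition motif and recruit the early spliceosome through an arginine-serine domain, moved in both directions with JQ1. Of their 25 probes 7 were higher and 5 lower, and the median change was 0.06. These were 28.0% and 20.0%, against 27.6% and 28.8% of all tested probes. Scaling to the median of all probes left 0 higher and 7 lower (0.0% and 28.0% against 11.8% and 46.9%). Scaling to the median of the tested probes gave 9 higher and 5 lower (36.0% and 20.0% against 32.0% and 25.8%). Srsf3 and Srsf7, which also serve as adaptors in mRNA export, and Srsf9 were lower, while Srsf5, Srsf6, Sugp2 and Scaf4 were higher.

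Srsf3, the smallest SR protein, had the largest fall of the group, on both of its probes. The dimmer probe read 9.49 and 9.88 (log2 intensity) with DMSO, 8.79 and 8.86 with JQ1, and 9.63 and 9.65 with GDC-0449. The JQ1 arrays lay below all others, and the GDC-0449 arrays lay within the DMSO range. The change with JQ1 was -0.86 ± 0.13 (SE of the model, 2 arrays a group, adjusted p = 0.000717), a 1.82-fold fall. The brighter probe read 10.04 and 9.83, 9.15 and 9.15, and 9.80 and 9.84 in the same order, with a change of -0.78 ± 0.10 (adjusted p = 0.000336). Srsf7 read 11.51 and 11.56 with DMSO, 11.00 and 11.16 with JQ1, and 11.32 and 11.31 with GDC-0449, and fell by 0.46 ± 0.10 with JQ1 (adjusted p = 0.00445). Both treatments lay below DMSO for Srsf7, but the change with GDC-0449, -0.22, did not pass (adjusted p = 0.157). A probe that RefSeq names assign to Srsf7 but that the array lists under a RIKEN clone name is no member, and it changed by 0.21 ± 0.11 with JQ1 (adjusted p = 0.156). Srsf9 read 11.36 and 11.32, 10.87 and 10.95, and 11.41 and 11.43, with a change of -0.42 ± 0.09 (adjusted p = 0.00468).

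The called rises were smaller than the changes of Srsf3. Srsf5 read 12.56 and 12.37 with DMSO, 12.83 and 13.02 with JQ1, and 12.69 and 12.61 with GDC-0449 at its variant 2 probe, a rise of 0.46 ± 0.11 (adjusted p = 0.00773). At its variant 1 probe it read 12.78 and 12.80, 13.18 and 13.15, and 12.92 and 12.84, a rise of 0.37 ± 0.09 (adjusted p = 0.00858). In both, the groups were ordered DMSO, GDC-0449, JQ1 without overlap, and the GDC-0449 change did not pass. Sugp2, which carries a SURP domain and a G-patch domain, read 10.12 and 10.28, 10.79 and 10.64, and 10.44 and 10.38, a rise with JQ1 of 0.52 ± 0.10 (adjusted p = 0.00326). Srsf6 rose by 0.28 ± 0.10 (adjusted p = 0.0388), and Scaf4, which binds the tail of RNA polymerase II, by 0.32 ± 0.09 (adjusted p = 0.0175). A Scaf4 probe listed under another symbol, not in the set, changed by -0.19 ± 0.15 (adjusted p = 0.316). Of these, the Srsf6 call was lost without each of the DMSO and JQ1 arrays in turn, that of Scaf4 without DMSO replicate 2 or either JQ1 array, and that of the dimmer Srsf5 probe without DMSO replicate 2 or JQ1 replicate 2. None of the higher SR calls was kept under scaling to the median of all probes.

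Srsf1 and Srsf2, the founding members of the family, did not pass with JQ1. The 2 Srsf1 probes read 13.00 and 12.95 and 12.25 and 12.54 with DMSO and 12.89 and 12.90 and 12.42 and 12.48 with JQ1, changes of -0.08 and 0.06. The 3 Srsf2 probes changed by 0.11, 0.10 and 0.20, with adjusted p between 0.237 and 0.489. Srsf11 had probes that disagreed, and which transcripts they detect was not analysed. Its 2 variant 1 probes rose by 0.50 ± 0.10 and 0.41 ± 0.12 (adjusted p = 0.00357 and 0.0166), the second call being lost without DMSO replicate 2 or JQ1 replicate 1, and its variant 3 probe fell by 0.42 ± 0.10 (adjusted p = 0.00582). A further pair of Srsf11 probes, listed under RIKEN names and outside the set, changed by -0.05 and -0.06 (adjusted p = 0.724 and 0.656).

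**Figure D2:**
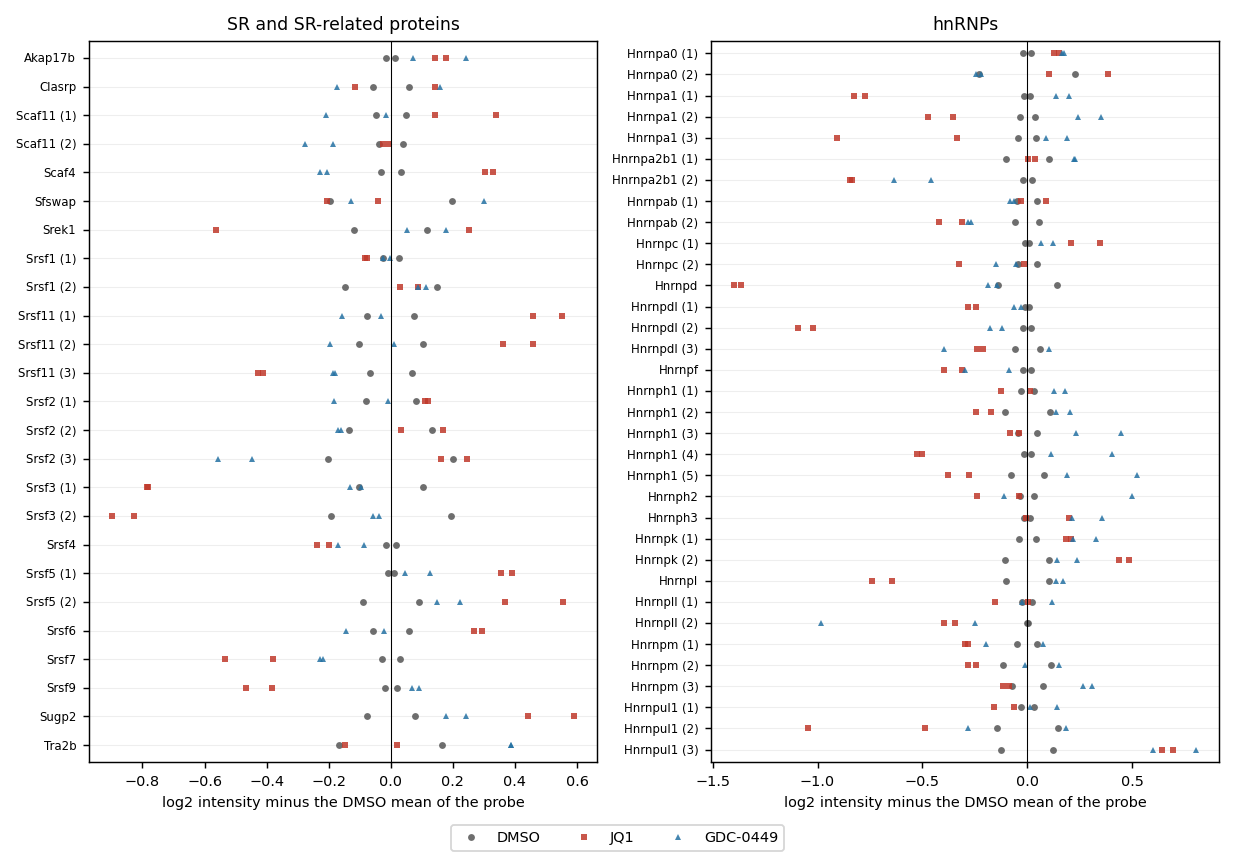
Log2 intensity of each array minus the DMSO mean of the same probe for the SR probes (left) and hnRNP probes (right), with probes of a gene numbered from the brightest. The JQ1 arrays (red squares) lie far left for Srsf3, Hnrnpd and a probe of Hnrnpdl, and right of DMSO for Srsf5, Sugp2 and a probe of Hnrnpul1. The GDC-0449 arrays (blue triangles) lie right of DMSO for that Hnrnpul1 probe too.

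The hnRNPs, which coat nascent transcripts and often silence nearby splice sites, had 3 of 34 probes higher and 12 lower with JQ1, with a median change of -0.22. These were 8.82% and 35.3%, against 27.6% and 28.8% of all tested probes. The split was 1 and 22 after scaling to the median of all probes (2.94% and 64.7% against 11.8% and 46.9%). It was 5 and 9 after scaling to that of the tested probes (14.7% and 26.5% against 32.0% and 25.8%). The falls included every probe of the set for Hnrnpa1, Hnrnpd, Hnrnpf and Hnrnpl.

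Hnrnpd, also known as AUF1, a protein that binds AU-rich elements and is linked to mRNA decay, fell to below detection. Its variant 1 probe read 6.38 and 6.09 with DMSO, 4.87 and 4.84 with JQ1, and 6.09 and 6.05 with GDC-0449. Neither JQ1 array detected it, so only a bound is given: the level was at least 1.73-fold lower with JQ1 (fitted change -1.38 ± 0.11, adjusted p = 2.81e-05). Its relative Hnrnpdl read 10.78 and 10.74 with DMSO, 9.67 and 9.74 with JQ1, and 10.58 and 10.64 with GDC-0449 at 1 of 3 probes. The JQ1 arrays lay clearly below the rest, a change of -1.06 ± 0.09 (2.08-fold, adjusted p = 3.92e-05). The brightest Hnrnpdl probe changed by -0.26 ± 0.09 (adjusted p = 0.0358), a call lost with any of the 6 arrays left out, and the dimmest by -0.23 (adjusted p = 0.241).

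Hnrnpa1, the textbook antagonist of SR proteins at exonic silencers, fell on all 3 probes. The brightest read 11.63 and 11.60 with DMSO, 10.78 and 10.84 with JQ1, and 11.75 and 11.81 with GDC-0449, a change with JQ1 of -0.80 ± 0.09 (1.74-fold lower, adjusted p = 0.00016). The GDC-0449 arrays lay above DMSO on each of the 3 probes, by 0.14 to 0.30, without passing. The other Hnrnpa1 probes changed with JQ1 by -0.41 and -0.62. The change of -0.41 lost its call without JQ1 replicate 2, and that of -0.62 without either DMSO array or JQ1 replicate 2. The call at -0.41 was also lost under scaling to the median of the tested probes (adjusted p = 0.0589). Hnrnpa1 has processed pseudogenes of near-identical sequence, and the probe positions were not analysed here. Hnrnpl, which binds CA-rich RNA, read 11.96 and 12.16, 11.32 and 11.42, and 12.20 and 12.23 in the same order, a change of -0.69 ± 0.11 (adjusted p = 0.000717). A dim probe that RefSeq names assign to Hnrnpl, listed under a RIKEN name and so outside the set, changed by -0.01 with JQ1 (adjusted p = 0.923) and by -0.58 ± 0.10 with GDC-0449 (adjusted p = 0.00882). Hnrnpf changed by -0.35 ± 0.11 (adjusted p = 0.0206), and lost its call without either DMSO array or JQ1 replicate 2.

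Hnrnpk and Hnrnpc, which bind C-rich and U-rich RNA, did not follow this course. The dimmer Hnrnpk probe read 6.99 and 7.21 with DMSO, 7.59 and 7.54 with JQ1, and 7.34 and 7.24 with GDC-0449, a rise of 0.46 ± 0.11 with JQ1 (adjusted p = 0.00616), while the brighter one changed by 0.20 (adjusted p = 0.109). The brighter Hnrnpc probe changed by 0.28 ± 0.10 (adjusted p = 0.0382), a call kept only without JQ1 replicate 1, and the dimmer by -0.17 (adjusted p = 0.265). Neither rise was called under scaling to the median of all probes. Hnrnph1, a G-run binder, had 5 probes, of which 1 passed with a change of -0.51 ± 0.12 (adjusted p = 0.00547) and 4 did not, their changes being between -0.33 and -0.06. The 3 Hnrnpm probes changed by -0.29 to -0.10 and none passed.

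The SF3A and SF3B complexes belong to the U2 snRNP and hold the branch site of the intron. Of their 10 probes 0 were higher and 3 lower with JQ1, with a median change of -0.25. Over all tested probes 27.6% were higher and 28.8% lower. The lower count was 1 of 10 with scaling to the median of the tested probes, against 25.8% of all tested probes. It was 7 of 10 with scaling to the median of all probes, against 46.9%. No SF3A or SF3B probe was higher under either scaling, against 32.0% and 11.8% of all tested probes. Sf3b3 read 11.27 and 11.23 with DMSO, 10.58 and 10.79 with JQ1, and 11.13 and 11.08 with GDC-0449, a change of -0.56 ± 0.10 with JQ1 (1.47-fold, adjusted p = 0.00216). Sf3a3 read 11.86 and 11.81, 11.47 and 11.45, and 11.78 and 11.71, and fell by 0.38 ± 0.09 (adjusted p = 0.00796). For both, the JQ1 arrays lay below the other 4. A Sf3a3 probe listed under a RIKEN name, not in the set, was detected on no JQ1 array and was at least 1.31-fold lower (adjusted p = 0.0146). Sf3b2 fell by 0.38 ± 0.12 (adjusted p = 0.0266), a call lost without DMSO replicate 2 or JQ1 replicate 1. Sf3a1, a subunit of the same U2 complex, read 10.95 and 10.97 with DMSO and 10.89 and 11.03 with JQ1, a change of 0.00 ± 0.10. Sf3a2 was detected on neither JQ1 array and was not called (adjusted p = 0.0525).

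Sm proteins form the ring on U1, U2, U4 and U5 RNA. Together with the U1 proteins Snrnp70 and Snrpa they had 14 probes, 1 higher and 4 lower with JQ1, with a median change of -0.17. These were 7.14% and 28.6%, against 27.6% and 28.8% of all tested probes. Scaling to the median of all probes gave 0 higher and 9 lower (0.0% and 64.3% against 11.8% and 46.9%) and a median of -0.37. Scaling to that of the tested probes gave 2 and 3 (14.3% and 21.4% against 32.0% and 25.8%) and a median of -0.01. Snrpd1 was lower on both probes. The brighter read 12.41 and 12.67 with DMSO, 11.84 and 11.90 with JQ1, and 12.49 and 12.38 with GDC-0449, and changed by -0.67 ± 0.11 (adjusted p = 0.00136). The dimmer changed by -0.72 ± 0.11 (adjusted p = 0.000593), and in both the JQ1 arrays were the lowest. Snrpg, another Sm protein, changed by -0.96 ± 0.10 at its dimmer probe (adjusted p = 0.000108) and by 0.08 at its brighter one (adjusted p = 0.53). The remaining Sm proteins were not called. Snrpd2 changed by -0.00 (12.97 and 13.00 with DMSO, 13.04 and 12.92 with JQ1), Snrpf by -0.13, Snrpd3 by -0.23 (adjusted p = 0.0565) and the 3 Snrpb probes by -0.21 to -0.05, none of which passed. Snrpa changed by -0.34 ± 0.10 at its brighter probe (adjusted p = 0.0196), a call lost without DMSO replicate 2 or JQ1 replicate 2, and by -0.23 at the other (adjusted p = 0.134).

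LSM proteins 2 to 8 form the ring on U6 RNA, and LSM1 to 7 a cytoplasmic ring that starts mRNA decapping. Of the 17 LSM probes 3 were higher and 7 lower with JQ1, with a median change of -0.15. These were 17.6% and 41.2%, against 27.6% and 28.8% of all tested probes. The split was 1 and 10 with scaling to the median of all probes (5.88% and 58.8% against 11.8% and 46.9%). It was 3 and 6 with scaling to that of the tested probes (17.6% and 35.3% against 32.0% and 25.8%). Lsm4 read 12.40 and 12.41 with DMSO, 11.64 and 11.69 with JQ1, and 12.25 and 12.33 with GDC-0449, a change of -0.74 ± 0.09 with JQ1 (1.67-fold, adjusted p = 0.000258). Lsm2 changed by -0.66 ± 0.11 at its brighter probe (10.49 and 10.64 against 9.94 and 9.86, adjusted p = 0.00106) and by -0.45 ± 0.17 at its dimmer one (adjusted p = 0.0474), the latter call being lost without either DMSO array or JQ1 replicate 2. Lsm3 changed by -0.27 ± 0.10 (adjusted p = 0.0461), a call lost with any of the 6 arrays left out. Lsm5, Lsm8 and both probes of Lsm1, which belongs to the cytoplasmic ring alone, did not pass, with changes between -0.19 and 0.09.

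The rises among LSM proteins came from members outside the rings. Lsm14b, a relative of the P-body protein Lsm14a, read 10.36 and 10.23 with DMSO, 10.99 and 11.08 with JQ1, and 10.20 and 10.38 with GDC-0449. The JQ1 arrays lay above all others, a rise of 0.74 ± 0.11 (1.67-fold, adjusted p = 0.000541). A dim second Lsm14b probe rose by 0.64 ± 0.15 (adjusted p = 0.00739), a call lost without DMSO replicate 2. Lsm14a went the other way, with 11.12 and 11.02 against 10.73 and 10.65 and a change of -0.38 ± 0.10 (adjusted p = 0.00929), lost without DMSO replicate 1 or JQ1 replicate 2. The dimmest Lsm12 probe rose by 0.42 ± 0.12 (adjusted p = 0.0141), lost without DMSO replicate 2 or JQ1 replicate 2, while the other Lsm12 probes changed by 0.00 and -0.01.

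**Figure D3:**
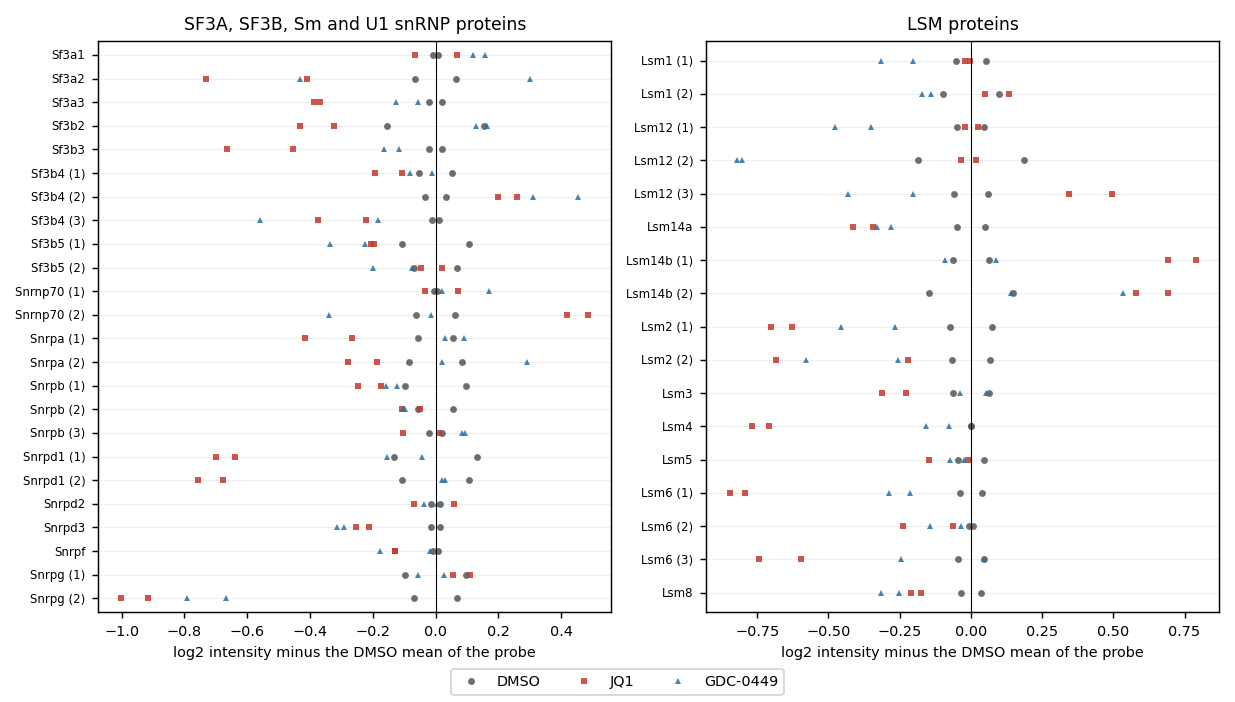
Log2 intensity of each array minus the DMSO mean of the probe for SF3, Sm and U1 snRNP probes (left) and LSM probes (right), with probes of a gene numbered from the brightest. The JQ1 arrays lie left of all others for Snrpd1, Lsm4 and Sf3b3 and right for Lsm14b, and the GDC-0449 arrays lie left of DMSO for the first 2 Lsm12 probes.

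PRPF proteins had 26 probes, of which 3 were higher and 9 lower with JQ1, with a median change of -0.15. These were 11.5% and 34.6%, against 27.6% and 28.8% of all tested probes. The split was 1 and 15 with scaling to the median of all probes (3.85% and 57.7% against 11.8% and 46.9%). It was 3 and 7 with scaling to that of the tested probes (11.5% and 26.9% against 32.0% and 25.8%). Prpf8, the scaffold of the U5 snRNP at the catalytic centre, was lower on both probes. Its dimmer probe read 6.92 and 7.05 with DMSO, 6.16 and 5.85 with JQ1, and 6.99 and 6.81 with GDC-0449, a change of -0.98 ± 0.13 with JQ1 (1.98-fold, adjusted p = 0.000322). The brighter read 9.68 and 9.77, 9.13 and 9.27, and 9.74 and 9.88, a change of -0.53 ± 0.10 (adjusted p = 0.00288). On both, the JQ1 arrays lay below all others. Prpf40b, related to a yeast U1 protein, read 8.57 and 8.47, 7.77 and 7.73, and 8.79 and 8.63, a change of -0.77 ± 0.10 (adjusted p = 0.000336). Its dimmer probe fell by 0.49 ± 0.17 (adjusted p = 0.0336), lost without either DMSO array or JQ1 replicate 2.

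Prpf31, a protein of the U4/U6 snRNP, fell by 0.67 ± 0.15 at 1 probe (6.22 and 6.24 with DMSO, 5.32 and 5.80 with JQ1, adjusted p = 0.00524), and changed by -0.35 at the other (adjusted p = 0.0863). A Prpf31 probe listed under a RIKEN name, not in the set, changed by -0.18 (adjusted p = 0.164). Prpf19, the ubiquitin ligase that names one of the protein complexes of the active spliceosome, had 3 probes with changes of -0.46 ± 0.10, -0.30 ± 0.09 and -0.22 ± 0.10 (adjusted p = 0.00413, 0.0236 and 0.0956). The second of these calls was lost without each of the DMSO and JQ1 arrays in turn. Prpf4, a U4/U6 protein, rose at its dimmer probe by 0.78 ± 0.13 (7.63 and 7.94 with DMSO, 8.47 and 8.65 with JQ1, 7.86 and 7.94 with GDC-0449, adjusted p = 0.00108). Its brighter probe changed by 0.09 (adjusted p = 0.572). Prpf4b, a kinase, was called higher but was detected on no DMSO and no JQ1 array, so no fold is given. Prpf3, Prpf6, Prpf18 and Prpf38b changed by -0.32 to 0.13, and of these 1 of the 5 Prpf3 probes passed.

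**Figure D4:**
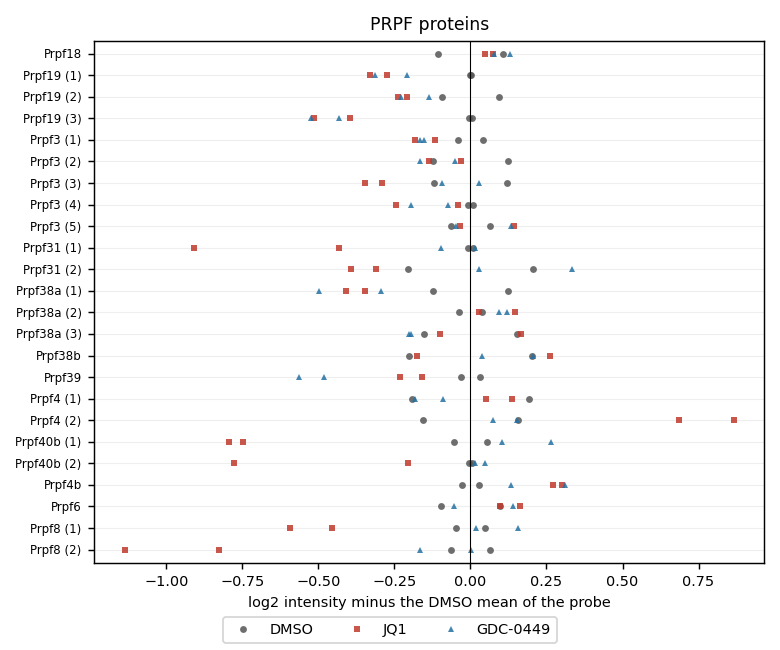
Log2 intensity of each array minus the DMSO mean of the probe for 24 of the 26 PRPF probes, numbered from the brightest within a gene. The JQ1 arrays lie left of the others for both Prpf8 and both Prpf40b probes and right for the dimmer Prpf4 probe, and the GDC-0449 arrays lie left for Prpf39.

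Few splicing factor probes passed with GDC-0449 under quantile normalization. Of the 126, 2 were higher and 7 lower, which is 7.14% against 15.3% of all tested probes, and the median change was -0.05 against 0.01. Over all tested probes 7.24% were higher and 8.11% lower. Scaling to the median of all probes moved the median over all tested probes to -0.20 and gave 1 higher and 43 lower, 0.794% and 34.1% of the set against 2.73% and 23.5% of all tested probes. With scaling to the median of the tested probes the counts were 3 and 15, or 2.38% and 11.9% against 8.46% and 9.06%. Without background correction they were 8 and 15, or 6.35% and 11.9% against 9.97% and 10.8%. With an offset of 50 they were 8 and 17, or 6.35% and 13.5% against 10.2% and 11.0%. Relative to the median of all tested probes, the set's median was -0.11 under both median scalings. It was -0.06 without background correction and with an offset of 50. The counts also turned on single arrays: 0 higher and 2 lower without DMSO replicate 1, 1 and 2 without GDC-0449 replicate 1, 1 and 4 without DMSO replicate 2, and 0 higher without GDC-0449 replicate 2. Under every scaling and with each array left out, 2 probes kept their call, a Lsm12 probe and a Snrpg probe.

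Lsm12, an LSM-domain protein outside the rings, had the largest fall with GDC-0449. Its middle probe read 8.71 and 9.08 with DMSO, 8.09 and 8.07 with GDC-0449, and 8.86 and 8.91 with JQ1. The GDC-0449 arrays lay below the other 4, a change of -0.81 ± 0.13 (1.76-fold, adjusted p = 0.00647). The brightest Lsm12 probe fell by 0.41 ± 0.10 (9.51 and 9.42 against 8.99 and 9.12, adjusted p = 0.0272), a call lost without each of the DMSO and GDC-0449 arrays in turn. A Lsm12 probe listed under a RIKEN name, not in the set, changed by -0.20 (adjusted p = 0.295). The dimmer Snrpg probe read 7.77 and 7.63 with DMSO, 7.04 and 6.91 with GDC-0449, and 6.79 and 6.70 with JQ1. Both treatments lay below DMSO, with a change of -0.73 ± 0.10 for GDC-0449 (adjusted p = 0.00414) and of -0.96 ± 0.10 for JQ1 (adjusted p = 0.000108).

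Prpf39, related to a yeast U1 protein, read 6.77 and 6.71 with DMSO and 6.17 and 6.26 with GDC-0449, a change of -0.52 ± 0.09 (adjusted p = 0.0108), lost without DMSO replicate 1 or GDC-0449 replicate 1. The dimmest Srsf2 probe changed by -0.50 ± 0.14 (8.01 and 7.61 against 7.26 and 7.37, adjusted p = 0.0439), lost with 5 of the 6 arrays left out in turn, and its brighter probes changed by -0.10 and -0.17. The dimmest Prpf19 probe changed by -0.48 ± 0.10 (adjusted p = 0.0159), lost without each of those 4 arrays in turn. Hnrnpa2b1 at its dimmer probe changed by -0.55 ± 0.10 (adjusted p = 0.0112), lost without either DMSO array or GDC-0449 replicate 1. The 2 rises were a dim Hnrnpul1 probe, 0.70 ± 0.12 (5.05 and 5.30 against 5.77 and 5.98, adjusted p = 0.00882, lost without DMSO replicate 1 or GDC-0449 replicate 2), and the middle Sf3b4 probe, 0.38 ± 0.10 (adjusted p = 0.0355, lost without each of those 4 arrays in turn). The remaining Sf3b4 probes changed by -0.05 and -0.37.

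By role, the hnRNP probes had a median of 0.12 with GDC-0449 and the LSM probes a median of -0.25, the highest and lowest of the 6 groups. The hnRNP median became -0.13 with scaling to the median of all probes and 0.08 with scaling to that of the tested probes, and the LSM median -0.44 and -0.23. No LSM probe lay wholly above DMSO on the GDC-0449 arrays and 12 of 17 lay wholly below, while 17 of 34 hnRNP probes lay above and 9 below. Over all tested probes the shares were 31.5% above and 29.1% below. By the test, 1 hnRNP probe passed in each direction (2.94%, all tested probes 7.24% higher and 8.11% lower) and 2 LSM probes were lower (11.8%). These counts changed with the processing. With scaling to the median of all probes 12 LSM probes were lower (70.6% against 23.5% of all tested probes), and with scaling to that of the tested probes 7 (41.2% against 9.06%). Without background correction 6 were lower (35.3% against 10.8%), and with an offset of 50 7 (41.2% against 11.0%). For the hnRNPs, 6 probes were higher without background correction (17.6% against 9.97%) and 6 with an offset of 50 (17.6% against 10.2%). With scaling to the median of all probes 5 hnRNP probes were lower (14.7% against 23.5%).

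The 2 comparisons with DMSO share the DMSO arrays, so a deviation of those arrays enters both. A dim Hnrnpul1 probe was higher in both, probes of Hnrnpa2b1, Prpf19 and Snrpg were lower in both, and no probe was called in opposite directions. Among these, only the Snrpg probe kept its GDC-0449 call with each array left out in turn. The probes called in both comparisons were not counted over all tested probes, so this overlap has no share to set it against.

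Setting JQ1 directly against GDC-0449 leaves the DMSO arrays out of the difference. With JQ1, 17 of the 126 probes were higher and 36 lower, 42.1% against 52.2% of all tested probes (25.6% higher and 26.5% lower), with a median difference of -0.07. The sign of this median depended on the scaling, being -0.10 after scaling to the median of all probes and 0.06 after scaling to that of the tested probes. In the latter case 32 probes were higher and 24 lower, 25.4% and 19.0% against 30.5% and 24.0% of all tested probes. Higher calls numbered 10 without GDC-0449 replicate 1. Under every scaling and with each array left out, 8 higher and 19 lower calls were kept.

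The hnRNPs had 1 of 34 probes higher in this contrast and 14 lower (2.94% and 41.2%). The SR proteins had 8 of 25 higher (32.0%) and 4 of 25 lower. Over all tested probes the shares were 25.6% and 26.5%, with no test of the difference. The hnRNP and SR medians were -0.21 and 0.02, and they kept these signs under both median scalings. The brightest Hnrnpa1 probe was lower with JQ1, with a difference of -0.97 ± 0.09 (1.96-fold, adjusted p = 6.41e-05), as was Hnrnpl with one of -0.84 ± 0.11 (adjusted p = 0.000275). At both of these probes the GDC-0449 arrays lay above the DMSO arrays and the JQ1 arrays below. The dim Hnrnpl probe outside the set went the other way and was higher with JQ1 than with GDC-0449, by 0.57 ± 0.10 (adjusted p = 0.0016). The Hnrnpd probe was at least 1.54-fold lower with JQ1 (adjusted p = 5.98e-05). Of the 5 Hnrnph1 probes 4 were lower, with differences of -0.77 to -0.38, and the GDC-0449 arrays lay above DMSO on each of them. The calls at -0.38 and -0.40 were lost without GDC-0449 replicate 1 or 1 of the JQ1 arrays. The remaining Hnrnph1 probe differed by -0.21 (adjusted p = 0.106).

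Prpf40b differed by -0.96 ± 0.10 (adjusted p = 0.000117), the dimmer Prpf8 probe by -0.90 ± 0.13 (adjusted p = 0.000561), Lsm4 by -0.62 ± 0.09 (adjusted p = 0.000709) and the dimmer Srsf3 probe by -0.82 ± 0.13 (adjusted p = 0.00106). Tra2b, a sequence-specific splicing activator, read 10.74 and 10.40 with DMSO, 10.59 and 10.42 with JQ1, and 10.96 and 10.96 with GDC-0449. It differed by -0.45 ± 0.13 between the treatments (adjusted p = 0.0171) although neither differed from DMSO by the test, and the call was lost without either GDC-0449 array or JQ1 replicate 2. In the other direction were Lsm12 on all 3 probes, by 0.42, 0.80 and 0.74, Lsm14b by 0.74 ± 0.11 (adjusted p = 0.000595), the dimmer Prpf4 probe by 0.66 ± 0.13 (adjusted p = 0.00267), Scaf4 by 0.53 ± 0.09 (adjusted p = 0.00145) and the dimmest Srsf2 probe by 0.70 ± 0.14 (adjusted p = 0.00287). The Lsm12 difference of 0.42 lost its call without GDC-0449 replicate 1, and the dimmest Lsm12 probe was detected on no GDC-0449 array and was at least 1.32-fold higher with JQ1.

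Probes of the same gene often differed in whether they passed, at times with changes of the same sign, as at Prpf19 and Prpf31. The counts below were not made for the other genes of the array. Of the 37 genes with several probes, 6 had every probe lower with JQ1 and 2 every probe higher, while 11 had some probes lower, 6 some higher, 2 had probes called in both directions and 10 had no probe called. The genes with every probe lower were Hnrnpa1, Lsm2, Prpf40b, Prpf8, Snrpd1 and Srsf3, and those with every probe higher Lsm14b and Srsf5. Hnrnpa2b1 read 12.38 and 12.18 with DMSO and 12.28 and 12.32 with JQ1 at its bright variant 2 probe, a change of 0.02 ± 0.10. Its dim variant 1 probe read 6.89 and 6.94 against 6.08 and 6.07, a change of -0.84 ± 0.10 (adjusted p = 0.000194). The bright Snrpg probe changed by 0.08 and the dim one by -0.96. Lsm6, a member of both LSM rings, had changes of -0.82 ± 0.09 and -0.67 ± 0.12 at its 2 called probes and changed by -0.15 at the third (adjusted p = 0.243).

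Snrnp70, the U1 protein that contacts the first stem of U1 RNA, changed by 0.02 at its brighter probe and rose by 0.45 ± 0.12 at its dimmer one (8.19 and 8.32 with DMSO, 8.67 and 8.74 with JQ1, adjusted p = 0.0144), a call lost without DMSO replicate 1 or JQ1 replicate 2. Hnrnpul1 had 3 dim probes with changes of -0.11, -0.77 and 0.67, of which the second is a fall to below detection on both JQ1 arrays (at least 1.19-fold lower, adjusted p = 0.0142, lost without DMSO replicate 1 or JQ1 replicate 1). Prpf38a changed by -0.38 ± 0.12 at its brightest probe (adjusted p = 0.0257, lost without DMSO replicate 1 or either JQ1 array) and by 0.09 and 0.03 at the others. A probe detects the transcripts that hold its sequence, and which transcripts these are beyond the variant named in the annotation was not analysed here.

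**Figure D5:**
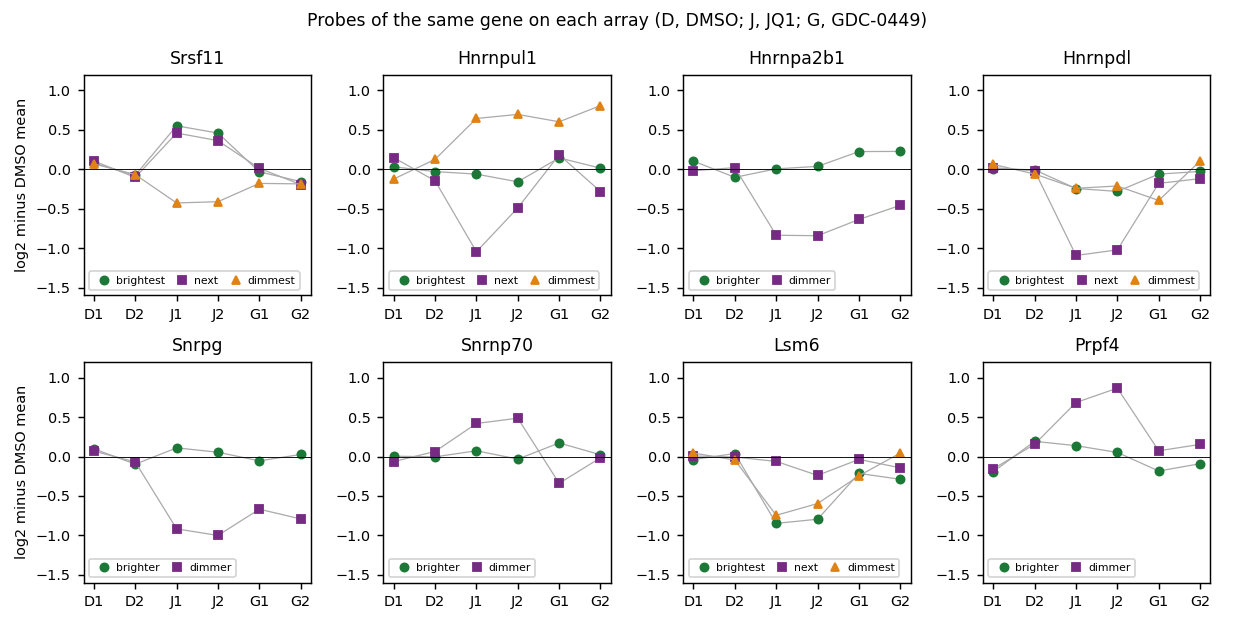
Log2 intensity minus the DMSO mean of the probe on each array for 8 genes whose probes differ, with lines joining the arrays of a probe. The probes of Srsf11 and Hnrnpul1 move in opposite directions on the JQ1 arrays, and those of Hnrnpa2b1 and Snrpg part on the JQ1 and GDC-0449 arrays.

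Other splicing genes were counted from a list of 120 genes of the same machinery, of which 102 were tested with 192 probes. With JQ1 35 probes were higher and 55 lower, 18.2% and 28.6%, with a median of -0.04, beside 27.6% and 28.8% of all tested probes. RNA helicases of the spliceosome had 8 of 12 probes lower (66.7%), and the SMN, Gemin and Prmt5 genes that assemble Sm rings 13 of 22 (59.1%). SR-related proteins and their kinases had 6 of 26 higher (23.1%) and 2 lower (7.69%). Rbm20, a regulator of titin splicing in muscle, listed on the array under a RIKEN name, read 8.85 and 8.72 with DMSO, 5.66 and 5.89 with JQ1, and 8.37 and 8.34 with GDC-0449, a change of -3.01 ± 0.11 with JQ1 (8.07-fold, adjusted p = 1.27e-06). Ptbp2, the neuronal polypyrimidine tract protein, and Magohb, of the exon junction complex, were detected on no JQ1 array and were at least 2.06-fold and 2.86-fold lower. Luc7l, a U1-associated protein, rose by 1.28 ± 0.10, Ptbp3 by 0.91 ± 0.15 and Rbfox2 by 0.91 ± 0.10. With GDC-0449, 2 of the 192 probes were higher and 17 lower, 1.04% and 8.85%, beside 7.24% and 8.11% of all tested probes. U2af1, which reads the 3′ splice site, rose by 0.56 ± 0.10 (8.68 and 8.64 against 9.31 and 9.13, adjusted p = 0.0109) and Tra2a by 0.39 ± 0.11, while the helicase Dhx15 fell by 0.63 ± 0.11 (11.13 and 10.98 against 10.34 and 10.51, adjusted p = 0.00831). Magohb also changed with GDC-0449 by -0.66 ± 0.19. Snrnp35, a protein of the minor U11/U12 snRNP, was detected on no GDC-0449 array and was at least 1.14-fold lower.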

How the data were processed

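For each array, the deposited table gives every probe's average bead intensity, linear and not normalized, next to its detection p-value, per the file headers. The submitters' processing notes name GenomeStudio 1.9.0, and RNA was extracted with Trizol and labelled as biotin cRNA, per the labels' protocols. The deposited series matrix holds the authors' gene-level intensity values on a linear scale, which served as an alternative. These values were judged background-subtracted and quantile normalized from their correlation with the processed intensities and their near-equal array medians. No header says so, and their quantiles were not compared.

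Intensities were background-corrected and quantile normalized with neqc of limma 3.58.1 (R 4.3.3), which takes the background from the detection p-values and adds an offset of 16. The offset pulls the changes of dim probes towards 0, and levels are not compared between probes. Quantile normalization makes every change relative to the rest of the array. Probes with detection p below 0.01 on at least 2 of 6 arrays were tested, 17026 in all. A linear model with 3 groups was fitted to all 6 arrays (lmFit and eBayes, 3 residual degrees of freedom and 5.33 from the prior), with two-sided p-values adjusted by Benjamini-Hochberg within each of 3 contrasts over all tested probes. An exact permutation of 2 against 2 arrays cannot go below 0.333, so no such test is given. The number of arrays limits the precision. The fit was tested on simulated data.

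A fold against a group that detected the probe on no array is given as at least, with lower values raised to the lowest detected signal of the array. Symbols of 46 probes were updated with the RefSeq GRCm38.p6 table, which also gave the promoters. The members, lists and alternatives were chosen with earlier results of these data known. Named probes were, by role and contrast, the 2 largest called rises and falls without overlap, a set of core genes, and genes whose probes differ in call. A further 2 scalings and gene summaries were tried, named in the closing section. The files name no slide or scan batch. Same-numbered arrays deviated with correlations of 0.00653, -0.013 and 0.0718, so the numbers were not taken as pairs. A few items are not reported here.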

Additional observations from a re-analysis of the deposited data

How the results depend on the processing

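The number of higher and lower splicing factor probes varied with the scaling and, for GDC-0449, with the background correction and offset. Scaling to the median of all probes gave 3 and 70 with JQ1 (median -0.38) and 1 and 43 with GDC-0449 (median -0.31), and the cause was not tested. Scaling to the median of the tested probes, chosen after seeing the data, gave a median of -0.014 with JQ1, 15 lower with GDC-0449, and 32 higher with a median of 0.063 for JQ1 against GDC-0449. Under it, Srsf1 at its brighter probe differed by 0.30 between JQ1 and GDC-0449 (adjusted p = 0.024), the reverse of its main difference of -0.07, which had not passed. Without background correction GDC-0449 gave 8 and 15, and with an offset of 50 it gave 8 and 17. With no filter on dim probes GDC-0449 gave 1 higher, and with detection required on all 6 arrays 12 lower. Values per gene test fewer features. The brightest probe of each deposited symbol gave 11 and 24 with JQ1, 1 higher with GDC-0449, and 10 and 18 for JQ1 against GDC-0449. The mean of a gene's probes gave 11 higher, 1 higher and 23 lower in the same order. The brightest probe with older symbols merged, chosen after seeing the data, gave 8 and 22, 0 higher, and 10 and 17. The series matrix values gave 11 and 26, 1 and 2, and 19 lower. With 1 array left out, JQ1 gave 9 to 16 higher and 30 to 43 lower (median -0.16 to -0.13), GDC-0449 0 to 2 and 2 to 6 (median -0.05 to -0.04), and JQ1 against GDC-0449 10 to 18 and 26 to 34 (median -0.09 to -0.07), the lone array being assumed to vary like the other groups. With the replicate number as a block the counts were 17 and 39, 2 and 7, and 16 and 35, and as the numbers do not pair the arrays this only adds terms to the fit. All other alternatives kept the counts within 1.5 times of the main ones.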
